A study of Mus musculus with 9 samples.

Results

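The 8 genes described here encode transcription factors of the cardiac progenitors, and were taken by symbol from the deposited tables: Isl1, Nkx2-5, Hand1, Hand2, Tbx5, Tbx20, Mef2c and Gata5, 8 of 49570 genes with a TPM value. The libraries hold polyA+ RNA of embryonic stem cells of the mouse (day 0) and of embryoid bodies grown from them in hanging drops (days 4 and 8), which are free-floating aggregates in which stem cells differentiate. The 9 libraries form 6 groups. Wild-type cells gave 1 library at each of the 3 days, and cells labelled Hnrnpll-/- gave 2 libraries at each day, from the lines labelled G6 and H8. All cells were grown as stem cells with serum and leukemia inhibitory factor. The labels give neither the parental strain nor how the knockout was made. Wild type is a single line, so genotype and line cannot be told apart. Nothing in the labels says that the libraries of a day came from separate cultures beyond the lines, so p-values measure only the spread between these libraries.

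The heart arises from mesoderm that leaves the primitive streak and passes through a Mesp1-positive state, after which cells of the first and second heart fields switch on a network of transcription factors. Isl1 marks the second heart field, while Nkx2-5, Tbx5, Gata factors and Mef2c act together on promoters of contractile genes, and Hand1, Hand2 and Tbx20 shape the chambers. In embryoid bodies the same genes come on before beating muscle appears. Several of them also work outside the heart: Isl1 in motor neurons, Hand2 in sympathetic neurons, Hand1 in trophoblast and extraembryonic mesoderm, Gata5 in endoderm and Mef2c in skeletal and smooth muscle.

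Total counts per library ran from 54218051 to 184952442, and the 2 knockout libraries of day 0 were the shallowest. Hnrnpll, the targeted RNA-binding splicing regulator, had 77.1, 101 and 112 TPM in the wild-type libraries of days 0, 4 and 8. Line G6 had 54.9, 61.2 and 56.5 TPM and line H8 24.5, 38.6 and 43.5 TPM. Every knockout library lay below the wild type of its day, but the RNA was present in all of them; the deleted part is not named, so this level does not check the knockout. The stem cell markers were present at day 0 in all lines (summed level of the 8 markers 6360 TPM in wild type, 8560 in G6 and 9334 in H8).

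Wild type at day 8 was the library with the highest TPM for 8 of the 8 cardiac factors (25.7% of 24751 genes tested with a TPM value had their maximum there), and both knockout lines lay below it for all 8 (44.5% of those genes at day 8). In that library Hand1 led at 239 TPM, followed by Hand2 at 64.6, Tbx20 at 44.6 and Isl1 at 24.5, while Mef2c (7.52), Gata5 (2.92), Nkx2-5 (2.84) and Tbx5 (1.25) were much lower on this length-scaled level. In the knockout at day 8, the highest value among the factors other than Hand1 was 7.83 TPM. The test across all genes called 3 members: Isl1, Tbx20 and Mef2c fell in the knockout, with 4.86% of 24794 genes called lower and 9.87% called in either direction at that day. In bulk RNA, fewer cells of a type and less RNA per cell cannot be told apart.

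**Figure D1:**
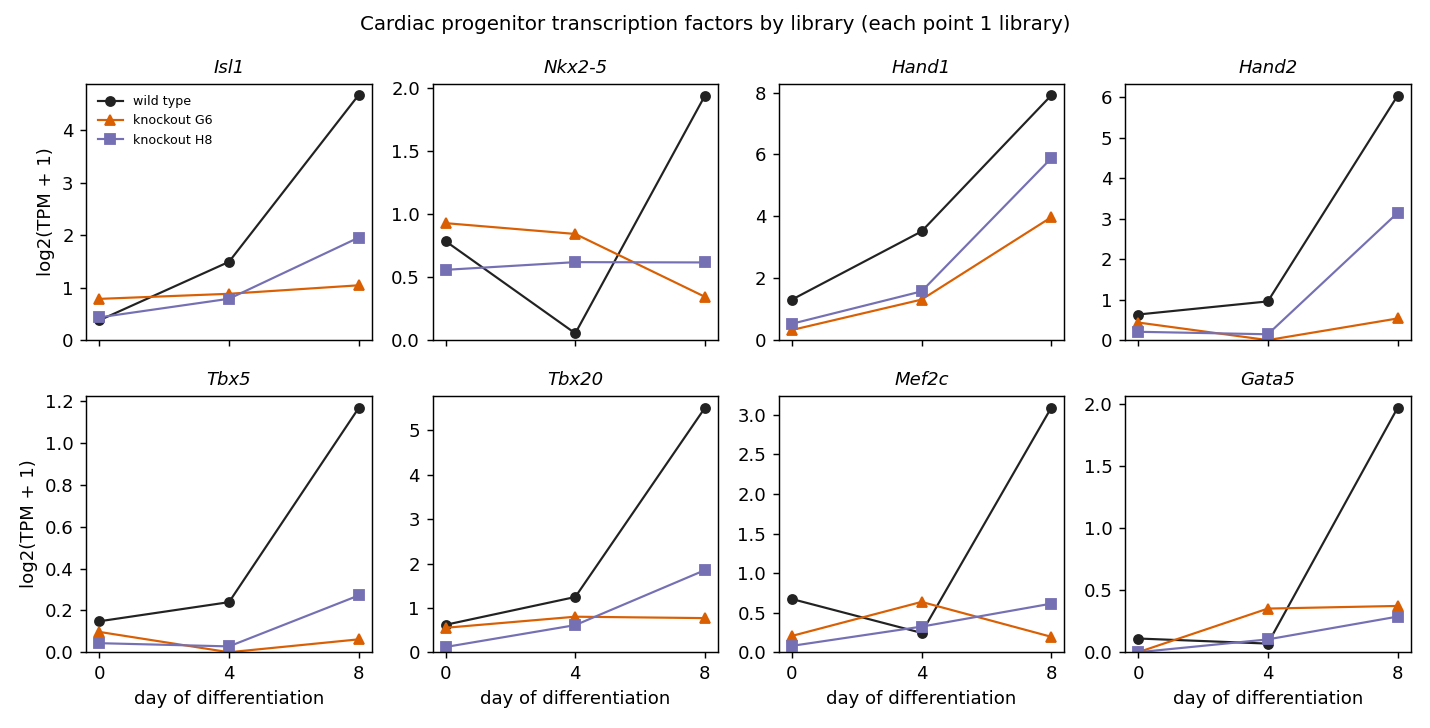
Level of each cardiac progenitor factor, as log2(TPM + 1), against day for wild type and the knockout lines G6 and H8, each point 1 library and each panel with its own axis. The wild-type library of day 8 is the highest point in all 8 panels, and line H8 lies above G6 at day 8 for all but Gata5.

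The HAND factors are basic helix-loop-helix proteins needed for growth of the ventricles. Hand1 (ENSMUSG00000037335, mm10 chromosome 11, 57828705 to 57832818, minus strand) had wild-type levels of 1.47, 10.4 and 239 TPM on days 0, 4 and 8. In line G6 it was 0.253, 1.48 and 14.7 TPM, and in line H8 0.441, 1.98 and 57.7 TPM. Both lines lay below wild type at every day, and the libraries of wild type and knockout did not overlap at any of them. At day 8 the knockout mean was 36.2 ± 30.5 TPM (SD, n = 2), a log2 difference of -2.61 (SE 0.71, edgeR adjusted p = 0.0713), which missed the threshold of 0.05. With the knockout line as a block it was -3.47 (SE 0.48) and passed (edgeR adjusted p = 0.0236). In that fit wild type is coded like G6, so the difference is that of the fitted G6 level, not of the mean of the lines. This holds for each comparison of knockout and wild type with the block.

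Hand2 (ENSMUSG00000038193, chromosome 8, 57320983 to 57324633, plus strand) is the member with the widest gap between the knockout lines. Its wild-type levels were 0.55, 0.94 and 64.6 TPM on days 0, 4 and 8, so nearly all of its level came with the last step. Line G6 had 0.351, 0 and 0.448 TPM and line H8 had 0.153, 0.105 and 7.83 TPM. Thus G6 at day 8 was near its level of day 0, while H8 was 17.5 times higher than G6. The log2 difference from wild type was -3.85 (SE 1.56, edgeR adjusted p = 0.165) and missed the threshold. The Hand2 locus overlaps Hand2os1, a long non-coding RNA read from the opposite strand, with 24.2 TPM in the wild-type library of day 8, 0 in G6 and 1.32 in H8. Because the use of strand in counting is not given, reads of the pair cannot be told apart.

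The bases before the start of Hand2 are shown because they held the most motif matches among the members' promoters in RefSeq's table (GRCm38.p6), in which 6 members were matched (8 starts); Hand1 and Tbx5 were not matched. Searched on both strands were NGATAA (GATA factors), CATCTG (HAND and other helix-loop-helix factors), AGGTGTNA (T-box), TNAAGTG (NKX2-5), the MEF2 motif (CTA and TAG with any 4 bases between) and CTAATNG (ISL1 and other LIM factors). Capitals mark matches, which did not overlap each other. The sequence is chr8:57320733-57320982, plus strand, 250 bases ending just before the RefSeq start:
Hand2: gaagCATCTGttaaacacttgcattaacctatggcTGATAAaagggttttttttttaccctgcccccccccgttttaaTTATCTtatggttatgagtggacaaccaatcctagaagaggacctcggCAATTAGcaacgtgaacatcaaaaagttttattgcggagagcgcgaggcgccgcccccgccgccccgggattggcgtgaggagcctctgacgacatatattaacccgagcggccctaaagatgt
It holds CATCTG at -246 to -241, NGATAA at -215 to -210 and, on the other strand, at -172 to -167, and CTAATNG on the other strand at -124 to -118. Of 32851 promoter windows of this length, 22.5% hold NGATAA, 14.4% CATCTG and 5.07% CTAATNG, so each match alone is common.

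The T-box factors bind a shared core sequence through a common domain. Tbx20 (ENSMUSG00000031965, chromosome 9, 24718138 to 24774303, minus strand), needed for chamber growth, had wild-type levels of 0.535, 1.37 and 44.6 TPM on days 0, 4 and 8. Line G6 gave 0.465, 0.742 and 0.705 TPM and line H8 0.085, 0.528 and 2.61 TPM. Neither line came near the wild-type level of day 8, and G6 at day 8 was no higher than at day 4. The knockout mean of day 8 was 1.66 ± 1.35 TPM (SD, n = 2). Tbx20 fell by 4.48 on the log2 scale (SE 0.92, edgeR adjusted p = 0.0388), the lowest fitted value among the members at that day. With the line as a block the adjusted p was 0.0712.

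Tbx5 (ENSMUSG00000018263, chromosome 5, 119832668 to 119885219, plus strand) specifies the atria and the left ventricle and is the human Holt-Oram syndrome gene. It was the least abundant member at day 8, with 0.108, 0.18 and 1.25 TPM in wild type. In G6 it was at 0.07, 0 and 0.044 TPM and in H8 at 0.03, 0.02 and 0.207 TPM. Every knockout library lay below the wild type of its day on this scale. Its read counts were 9, 49 and 321 in wild type, 8, 0 and 15 in G6 and 4, 6 and 85 in H8. At day 0, where no library held more than 9 reads, the direction turns with the scale: the difference in counts was 0.37 (SE 1.53), above 0. At day 8 the log2 difference was -3.18 (SE 1.23, edgeR adjusted p = 0.15), short of the threshold.

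The 250 bases before the Tbx20 start are printed because Tbx20 was the member with the lowest share of the wild-type level in line H8, yet none of the 6 motifs was found there. They are chr9:24774304-24774553, minus strand:
Tbx20: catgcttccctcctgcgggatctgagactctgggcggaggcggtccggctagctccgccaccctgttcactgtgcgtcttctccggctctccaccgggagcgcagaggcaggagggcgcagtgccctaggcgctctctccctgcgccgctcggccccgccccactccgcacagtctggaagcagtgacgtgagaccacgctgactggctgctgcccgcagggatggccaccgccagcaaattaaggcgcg
That says only that these letters are absent from this window. The window has 68.8% G and C, against a median of 52.4% over all promoter windows, whereas that of Hand2 has 49.2%.

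Isl1 (ENSMUSG00000042258, chromosome 13, 116298281 to 116309689, minus strand) encodes a LIM homeodomain protein of second heart field progenitors. Its wild-type level was 0.298 TPM on day 0, 1.81 on day 4 and 24.5 on day 8. Line G6 was at 0.724, 0.844 and 1.06 TPM and line H8 at 0.35, 0.726 and 2.88 TPM. At day 0 both lines lay above wild type, and from day 4 on both lay below it. At day 8 the knockout mean was 1.97 ± 1.28 TPM (SD, n = 2), and Isl1 fell by 3.57 on the log2 scale (SE 0.56, edgeR adjusted p = 0.0243). Unlike Tbx20 and Mef2c, it kept its call with the knockout line as a block.

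The window before the Isl1 start is shown because Isl1 had the lowest adjusted p of the members and its window holds a GATA match. It is chr13:116309689-116309938, minus strand, with the match in capitals:
Isl1: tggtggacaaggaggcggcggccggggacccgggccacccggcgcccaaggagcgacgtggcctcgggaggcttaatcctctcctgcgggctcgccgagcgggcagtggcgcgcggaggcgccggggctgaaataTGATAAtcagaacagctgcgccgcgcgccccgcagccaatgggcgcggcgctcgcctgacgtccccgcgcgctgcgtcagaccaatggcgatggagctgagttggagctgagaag
The match to NGATAA lies at -115 to -110. Hand2, Isl1 and Mef2c were the members with NGATAA in a window.

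Nkx2-5, Mef2c and Gata5 belong to the factors that bind contractile gene promoters together: an NK homeodomain protein, a MADS-box protein and a zinc finger protein. Mef2c (ENSMUSG00000005583, chromosome 13, 83504034 to 83667080, plus strand) had wild-type levels of 0.594, 0.185 and 7.52 TPM on days 0, 4 and 8. In G6 it was at 0.154, 0.554 and 0.145 TPM, and in H8 at 0.057, 0.252 and 0.531 TPM. By TPM both lines lay below wild type at days 0 and 8 and above it at day 4. In scaled counts H8 at day 4 lay below wild type (0.315 against 0.475 CPM, counts scaled to library size, from 44 and 57 reads), and without G6 at that day the log2 difference was -0.59. Mef2c fell by 3.47 on the log2 scale at day 8 (SE 0.81, edgeR adjusted p = 0.0494), just inside the threshold, and its adjusted p was 0.0923 with the line as a block. Scaling by total counts or testing without the filter on low counts also ended this call.

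Nkx2-5 (ENSMUSG00000015579, chromosome 17, 26838664 to 26845009, minus strand), the earliest homeobox gene of heart muscle cells, was at 0.724, 0.0378 and 2.84 TPM in wild type. The day 4 value rests on 4 counts of 122111155 (95% Poisson interval 1.09 to 10.2 counts, which covers at most counting error). The interval takes each count as an independent fragment. In this library 32.0% of low counts were multiples of 4, so it may be too narrow. Line G6 was at 0.903, 0.793 and 0.269 TPM and line H8 at 0.472, 0.536 and 0.533 TPM, so neither line was higher at day 8 than at day 4. At day 4 both lines were above wild type, and at day 8 both were below it. The log2 difference of day 8 was -2.69 (SE 0.63, edgeR adjusted p = 0.0513), next to the threshold on its outer side.

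Gata5 (ENSMUSG00000015627, chromosome 2, 180325133 to 180334699, minus strand), known from endocardium and endoderm, was at 0.0798, 0.0496 and 2.92 TPM in wild type. It had no reads in either knockout library at day 0, whereas G6 had 0.277 TPM on day 4 and 0.296 on day 8, and H8 had 0.0745 and 0.221 TPM. It was the member with the closest agreement of the lines at day 8, 0.258 ± 0.053 TPM (SD, n = 2). The log2 difference of day 8 was -3.37 (SE 0.80, edgeR adjusted p = 0.0634) and missed the threshold. The gene overlaps Gata5os on the opposite strand, listed at 0.197 TPM for the wild-type library of day 8 and at 0 for the other libraries.

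Across the 8 members, the median log2 difference at day 8 was -3.42, against 0.08 over all genes tested. All 8 were below an unadjusted p of 0.05, as were 7354 of the 24794 genes (29.7%). With adjustment, 3 passed in edgeR, 6 with DESeq2, 8 with limma-voom, and 7 on log2(TPM + 1). Over all genes the share of calls that were higher in the knockout was 50.7% in edgeR, 59.2% with total count scaling and 32.1% on log2(TPM + 1). The calls depend on single libraries: without the day 4 knockout library of either line, or without G6 at day 8, none of the members passed, nor more than 2 of all genes. Without H8 at day 8, 2 members passed and 572 genes.

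**Figure D2:**
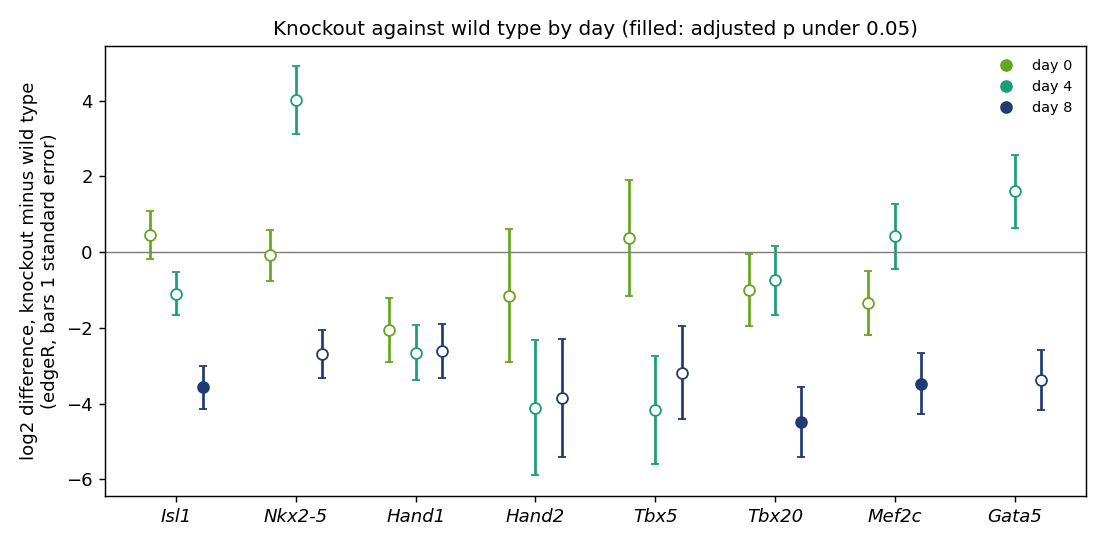
Log2 difference of knockout minus wild type for each member at days 0, 4 and 8 from the edgeR fit, with bars of 1 standard error and filled points for an adjusted p under 0.05. All day 8 points lie between -4.48 and -2.61, and Nkx2-5 at day 4 is the highest point at 4.01; Gata5 at day 0 is not drawn because the knockout had no reads.

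At day 0, in stem cells, no member passed in edgeR (5.43% of all genes did), 2 had an unadjusted p under 0.05 (24.4% of genes did), DESeq2 called 2 (Hand1 and Gata5), and limma-voom and limma on TPM called none. By TPM, 6 members were below wild type in both lines, as were 40.2% of genes. Hand1 differed by -2.05 (SE 0.84, edgeR adjusted p = 0.204). Gata5 had 16 reads in wild type and 0 in the knockout libraries, which at a floor of 3 counts over the group makes wild type at least 5.52-fold higher, or 1.38-fold if reads came in steps of 4. The members' median was -1.08 against -0.02 over all genes.

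At day 4 no member passed in edgeR (0.00807% of all genes did), 3 had an unadjusted p under 0.05 (13.5% of genes did), DESeq2 called 2 (Hand1 and Nkx2-5), and limma-voom and limma on TPM called none. Hand1 differed by -2.65 (SE 0.72, edgeR adjusted p = 0.235), close to its values at days 0 and 8. Tbx5 and Hand2 had fitted values of -4.16 (SE 1.42) and -4.11 (SE 1.79) with adjusted p of 0.306 and 0.389; G6 had 0 reads of either. Isl1 was at -1.09 and Tbx20 at -0.74. Above wild type were Nkx2-5 at 4.01 (SE 0.90, edgeR adjusted p = 0.176), Gata5 at 1.61 and Mef2c at 0.42, the latter on the other side of 0 in 1 of 17 alternatives. By TPM, 5 members were below wild type in both lines (31.6% of genes were).

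In wild type the levels moved mostly between days 4 and 8. Each day has 1 library, so these steps have no test. From day 0 to day 4, Hand1 and Isl1 were at least 2-fold higher on the log2(TPM + 1) scale, by 2.21 and 1.12, where 4.79% of genes were. From day 4 to day 8, 7 of the 8 members were at least 2-fold higher (10.7% of genes were). On that scale Hand2 had a step of 5.08, Hand1 of 4.396, Tbx20 of 4.27, Isl1 of 3.18, Mef2c of 2.85, Gata5 of 1.90 and Nkx2-5 of 1.89. Tbx5 was at 0.93 on this scale, on which the added 1 TPM compresses low genes. Without it the order differs: the ratio of TPM on day 8 to day 4 was 75.1 for Nkx2-5 (from 4 counts at day 4), 68.7 for Hand2, 58.9 for Gata5, 40.7 for Mef2c, 32.5 for Tbx20, 23.0 for Hand1, 13.5 for Isl1 and 6.90 for Tbx5.

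In the knockout, from day 0 to day 4, Gata5 rose (1 member called, edgeR adjusted p = 0.0364, where 14.7% of all genes were called). With 82 reads at day 4 and 0 at day 0 it was at least 11.5-fold higher, or 2.88-fold if reads came in steps of 4. The call was lost whichever of the 6 knockout libraries was left out, and in the limma fits. Hand1 differed by 2.29 over this step (SE 0.74, edgeR adjusted p = 0.0903), and rose with the line as a block (2.41, adjusted p = 0.0284). From day 4 to day 8 no member passed in edgeR (0.311% of genes did), 4 had an unadjusted p under 0.05 (13.2% of genes did), DESeq2 called 2 (Hand1 and Hand2), and limma-voom and limma on TPM called none. Hand1 again was nearest at 4.38 (SE 0.70, edgeR adjusted p = 0.0769), and rose with the line as a block (4.12, adjusted p = 0.0428). Hand2 was at 6.17 (SE 1.73), Tbx5 at 3.57 (SE 1.296) and Isl1 at 1.24 (SE 0.48). For Tbx5, Hand1, Hand2 and Isl1, both knockout libraries of day 8 lay above both of day 4, as did 24.4% of genes. Nkx2-5 (-0.71), Mef2c (0.13) and Gata5 (0.59) had fitted steps within 1 log2 unit.

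Whether these steps differed between genotypes was tested as an interaction. From day 0 to day 4 no member passed in edgeR (0.504% of genes did), 2 had an unadjusted p under 0.05 (17.2% of genes did), DESeq2 called 2 (Nkx2-5 and Gata5), and limma-voom and limma on TPM called none. From day 4 to day 8 none passed in edgeR, nor any other gene (0% called), 5 members and 4041 genes (16.3%) had an unadjusted p under 0.05, DESeq2 called 4 (Nkx2-5, Mef2c, Gata5 and Tbx20), limma on log2(TPM + 1) called 2 (Mef2c and Gata5), and limma-voom and log2(TPM + 0.1) called none. In the edgeR fit Nkx2-5 had the widest difference of steps, -6.70 (SE 1.12, edgeR adjusted p = 0.131). That value rests on 4 reads in wild type at day 4, and it ran from -7.17 to -2.14 over 16 alternatives. Tbx20 and Isl1 were at -3.74 and -2.47 in the edgeR fit. For Hand1 the knockout and wild-type steps were alike in size, with a difference of 0.04 (SE 1.04), and for Hand2 it was 0.26 (SE 2.29); both turned sign among the alternatives.

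Over all days together, in a model with day and genotype as terms, Hand1 fell in the knockout by 2.47 on the log2 scale (SE 0.39, edgeR adjusted p = 0.0374), the 1 member called where 0.984% of genes were. By TPM it was lower in 6 of 6 knockout libraries, as were Hand2, Tbx5 and Tbx20, which were not called. Of all genes, 40.2%, 31.6% and 44.5% were below wild type in both lines at days 0, 4 and 8, each day taken alone. The call held in 9 of 20 alternatives and was lost without any of the knockout libraries except G6 at day 8, without wild type of day 4 or day 8, with either line alone, without the day 0 libraries, and on log2(TPM + 1). Hand2 (-3.25), Tbx5 (-2.74), Gata5 (-2.53), Tbx20 (-2.34), Mef2c (-1.76), Isl1 (-1.72) and Nkx2-5 (-0.49) did not pass, and Nkx2-5 turned sign in 4 of 20 alternatives.

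The knockout lines differed from each other at day 8. Line H8 held 24.1% of the wild-type TPM of Hand1, 18.8% of Nkx2-5, 16.6% of Tbx5, 12.1% of Hand2, 11.7% of Isl1, 7.06% of Mef2c and 5.85% of Tbx20. Line G6 held less of each: 6.13% of Hand1, 9.46% of Nkx2-5, 3.5% of Tbx5, 0.694% of Hand2, 4.33% of Isl1, 1.93% of Mef2c and 1.58% of Tbx20. Gata5 was the exception, at 10.1% in G6 and 7.55% in H8. The ratio of H8 to G6 was 17.5 for Hand2, 4.74 for Tbx5, 3.94 for Hand1, 3.70 for Tbx20, 3.66 for Mef2c, 2.71 for Isl1 and 1.98 for Nkx2-5. Over 23872 genes tested and present in G6, the median ratio was 1.01 and 9.92% reached 2-fold. From scaled counts the shares of Mef2c were 6.39% in G6 and 11.6% in H8 (ratio 1.82), and the ratios of the other members were between 0.735 and 17.1. Each line is 1 library at that day, so this difference has no test. Within the knockout, Hnrnpll itself was lower in H8 than in G6 at each day.

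**Figure D3:**
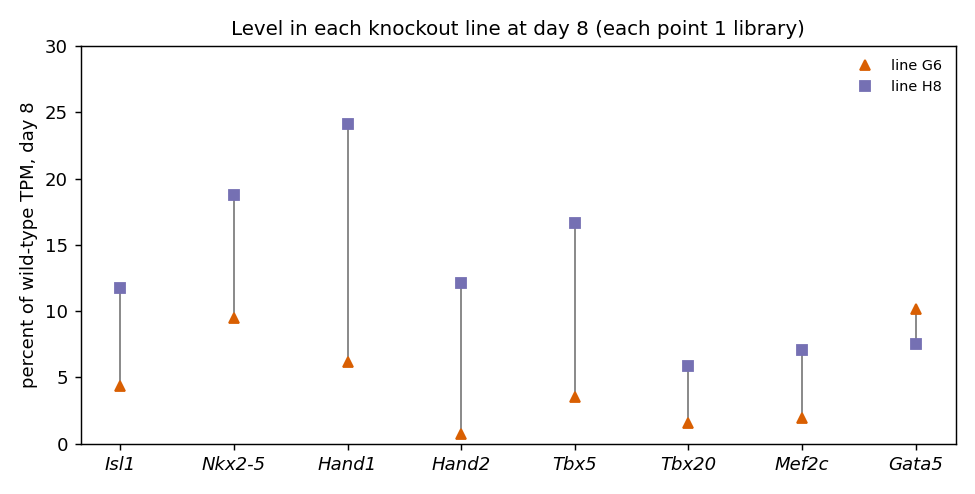
Level of each member at day 8 in the knockout lines G6 and H8, as a percent of the wild-type TPM of that day, each point 1 library. No point exceeds 24.1%, and H8 lies above G6 for all members but Gata5.

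Ordered by level over the 6 groups, wild type of day 8 came first for every member and lay beyond the spread of the knockout lines where a knockout group was next. For Isl1, Hand1, Hand2 and Tbx20 the next group was the knockout of day 8, which did not differ from wild type of day 4 beyond the spread of its lines. For Gata5 the knockout of day 8 also came next, and it did not differ from the knockout of day 4. For Mef2c the wild type of day 0 and the knockout groups of days 4 and 8 were next to each other in the order, and did not differ beyond the spread. For Nkx2-5, wild type of day 0 and the knockout groups of days 0 and 4 did not differ from each other beyond the spread. The mean of the knockout of day 8 came below that of day 4 by more than its spread. This came from G6 (0.793 and 0.269 TPM on days 4 and 8), since H8 hardly changed (0.536 and 0.533 TPM). The fitted step was -0.71 (SE 0.55, edgeR adjusted p = 0.683). The knockout of day 8 overlapped the knockout of day 0, with 0.533 TPM in H8 at day 8 and 0.472 in H8 at day 0. For Tbx5 wild type of day 4, the knockout of day 8 and wild type of day 0 were within the spread. Neighbours that are both wild type have no spread to set them against.

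The factors named next were grouped by stage, in lists chosen with earlier results of these data known. The early cardiac mesoderm list holds genes of the primitive streak and of the first cardiac mesoderm. At day 4, all 14 of its genes had fitted values below 0 (44.8% of all genes had), with a median of -3.51 against 0.07 over all genes. None passed in edgeR, and 11 had an unadjusted p under 0.05, as had 13.5% of all genes at that day. Mesp1, which marks the first cardiac progenitors and is named here after its values were seen, was at 87.5 TPM in the day 4 wild type, at 0 in G6 and at 1.98 TPM in H8. At day 8 the list's median was -0.08: Kdr, the VEGF receptor of vascular and cardiac progenitors, fell by 4.81 (SE 0.83, edgeR adjusted p = 0.0278), while Tdgf1, the Nodal co-receptor, rose 7.98-fold (adjusted p = 0.0142) and Lefty2, a Nodal inhibitor, 3.22-fold (adjusted p = 0.0208). At day 0, 2 of 14 fell, Wnt3 by 5.96 (SE 1.17) and Lefty2 by 2.12 (SE 0.20), where 1073 of 24794 genes fell. In the knockout from day 0 to day 4, 5 of 14 rose, where 2370 of 24794 genes did. These 5 included T, by 7.91 (SE 1.08), and Eomes, by 2.34 (SE 0.41). T then stood at 30.7 TPM in G6 and 78.5 in H8 beside 853 TPM in wild type.

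Partner factors of the heart fields followed at day 8: 3 of 20 fell and none rose, where 4.86% of all genes fell. The median of this list was -1.91 against 0.08 over all genes. Myocd, the coactivator of serum response factor in heart and smooth muscle, fell by 4.04 (SE 0.70, edgeR adjusted p = 0.0278), and stood at 3.26 TPM in wild type against 0.0834 in G6 and 0.3 in H8. Eya1, a second heart field coactivator, fell by 3.34 (SE 0.48), and Smarcd3, a cardiac subunit of the BAF chromatin remodelling complex, fell by 2.12 (SE 0.39). Of the signals that reach the heart fields, 1 of 16 fell at day 8, near the share of 4.86% over all genes. It was the chemokine Cxcl12, which fell by 3.81 (SE 0.71, edgeR adjusted p = 0.0319). All 16 signals had fitted values below 0 (46.0% of all genes had), with a median of -2.01. At day 4 none of the 20 partners and none of the 16 signals passed in edgeR (medians -0.44 and -1.38, with 5 and 8 at an unadjusted p under 0.05, where 13.5% of all genes were). At day 0 Sfrp1, a secreted Wnt inhibitor, rose by 2.35 (SE 0.28).

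Contractile and electrical genes of heart muscle, many of them known targets of these factors, had the most calls: 11 of 24 fell at day 8 and none rose, with a median of -3.35. Of all genes, 4.86% fell at that day. Fitted values were below 0 for 21 of the 24, and for 46.0% of all genes. By TPM Actn2 (1.43 in wild type, 1.95 in G6 and 3.08 in H8) and Tnni3 (4.30, 6.52 and 9.59) lay the other way. The log2 differences were -6.75 (SE 0.37, edgeR adjusted p = 0.0142) for cardiac actin Actc1, -5.38 (SE 0.57, adjusted p = 0.0175) for the myosin heavy chain Myh7, -5.14 (SE 0.49, adjusted p = 0.0142) for the troponin Tnnt2 and -4.80 (SE 0.96, adjusted p = 0.0361) for the sodium-calcium exchanger Slc8a1. At day 4 none of the 24 passed in edgeR, 5 had an unadjusted p under 0.05 (13.5% of all genes had) and the median was 0.17. At day 0, 1 of 24 fell, where 1073 of 24794 genes did. This was Actc1, with 385 reads in wild type and 0 in the knockout libraries, at least 133-fold higher in wild type, or 33.2-fold if reads came in steps of 4. Family paralogs of the members, such as other T-box and GATA genes, had a lower count. Of 30 tested at day 8, 2 fell (Nkx2-3, log2 difference -5.91, and Tbx4, -3.75), where 4.86% of all genes fell. Of the 30, 1 rose, Tbx21, with 94 reads in the knockout libraries and 0 in wild type (at least 11.7-fold higher, or 2.93-fold if reads came in steps of 4). The median of the paralogs was -1.02, and -1.08 with genes at 0 reads in a group set to their bound. Reads shared among such paralogs could move between them in the counting.

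**Figure D4:**
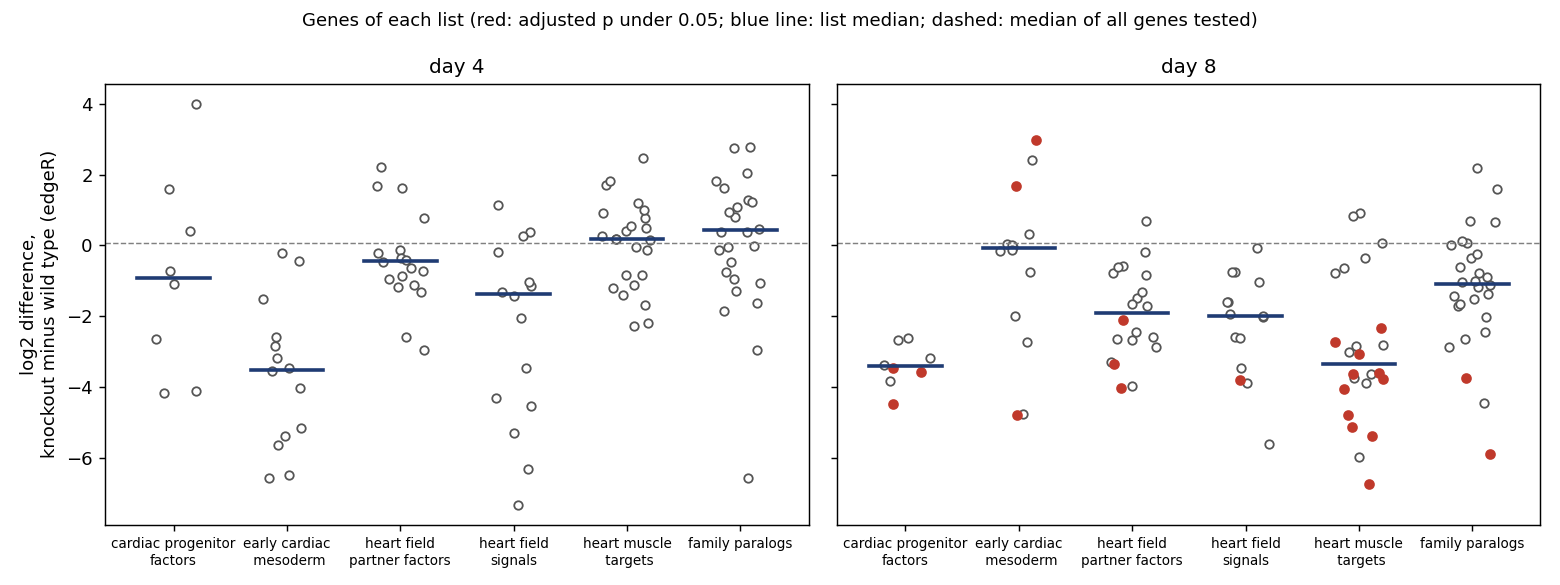
Log2 difference of knockout minus wild type at day 4 (left) and day 8 (right) for each gene of the 8 cardiac factors and of 5 lists, with the list median as a blue line, genes past the threshold in red and the median of all genes dashed. Early cardiac mesoderm lies lowest at day 4 (median -3.51), and the cardiac factors (-3.42) and heart muscle targets (-3.35) lie lowest at day 8; genes with a group at 0 reads are not drawn and enter the medians at their bound.

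Markers of heart muscle and of other cell types were read at day 8. Of all genes, 4.86% were called lower at that day. The 8 cardiomyocyte markers are all in the list of heart muscle genes above, with 6 among those called there, and are no separate observation. They summed to 259 TPM in wild type and to 9.41 and 13.9 TPM in G6 and H8. At 1 TPM or more were 8 markers against 3 and 4, and none was at 0. Actn2 lay the other way, at 1.43 TPM in wild type, 1.95 in G6 and 3.08 in H8. The 8 endothelial markers summed to 214 TPM against 96.6 and 85.9 (1 marker at 0 in each line), with 3 of 7 tested lower (Cdh5, Tie1 and Tek). Pecam1 lay the other way, at 21.1 TPM in wild type, 49.0 in G6 and 41.6 in H8 (log2 difference 1.24, edgeR adjusted p = 0.14). The 8 endoderm markers summed to 324 TPM against 35.2 and 46.0, with 2 of 8 lower (Foxa1 and Ttr). The 6 smooth muscle markers summed to 1119.5 TPM against 74.7 and 157, with 1 of 6 lower (Tagln). Acta2 (780 TPM against 2.79 in G6 and 39.0 in H8) and Tagln made up most of that sum, and Des stood at 14.1 TPM against 14.45 and 25.5. The 8 stem cell markers went the other way, with 1182 TPM in wild type against 6971 and 6604 TPM, and Esrrb, Nanog, Zfp42 and Pou5f1 rose by 3.11, 3.02, 2.87 and 2.68 on the log2 scale. The part of these cell types in the levels of the cardiac factors was not tested.

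Markers of other cell types that use the same factors were also read. The 6 motor neuron markers summed to between 0.514 and 2.26 TPM over all libraries, and the 6 skeletal muscle markers to between 0.071 and 0.95 TPM, with 4 of 6 at 0 in wild type at day 8. The 6 sympathetic neuron markers summed to 9.59 TPM in wild type at day 8 and to 4.36 and 8.20 TPM in the knockout. Gata3 made up 8.98 TPM of that wild-type sum. Phox2a, the 1 of 4 tested that was called, rose by 2.58 on the log2 scale (edgeR adjusted p = 0.0284). It stood at 0.381 TPM in wild type against 1.80 in G6 and 2.76 in H8. Of 5 motor neuron markers tested, 1 was called at day 8: Slc18a3 rose by 4.46 (edgeR adjusted p = 0.0372), from a wild-type level of 0.0506 TPM. At that day 9.87% of all genes were called in either direction. The 8 trophoblast markers summed to 55.8 TPM in wild type at day 8 and to 60.4 and 83.7 TPM in G6 and H8, and none of the 6 tested passed in edgeR, with the number at an unadjusted p under 0.05 being 3. Its markers differed in direction: Krt7 stood at 11.7 TPM against 28.6 in G6 and 31.8 in H8 and Tfap2c at 10.7 against 22.4 and 41.4, but Plac1 at 30.2 against 3.76 and 4.63. Their part was likewise not tested.

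**Figure D5:**
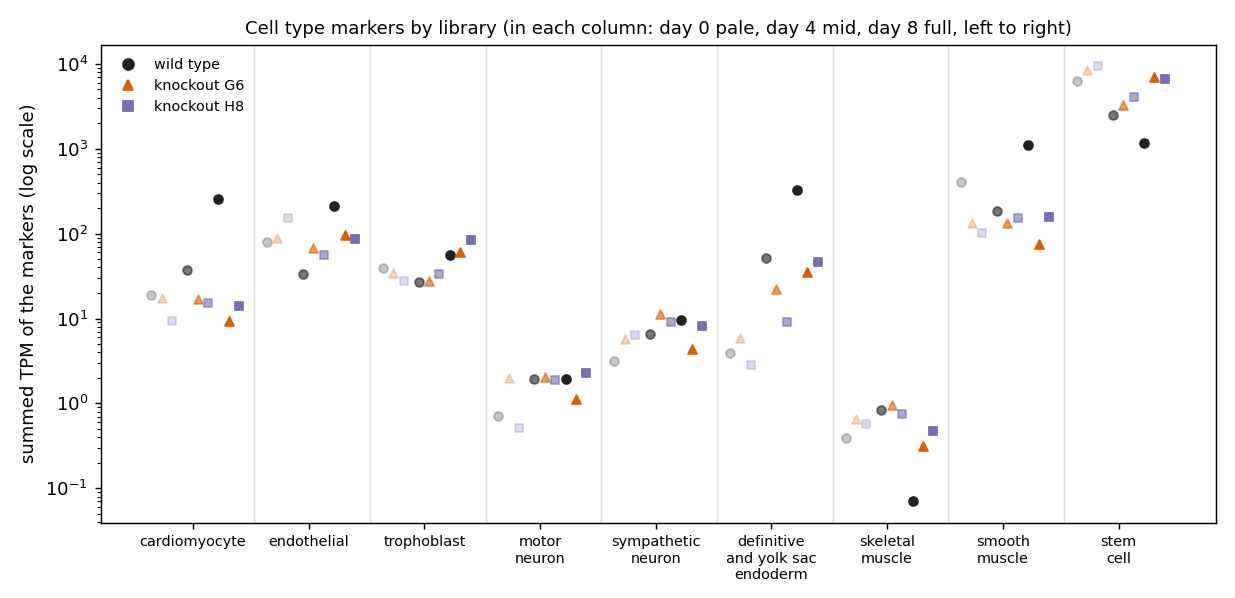
Summed TPM of each cell type's markers by library on a log axis, with wild type as circles, G6 as triangles and H8 as squares, and days 0, 4 and 8 from left to right within each column. At day 8 the wild-type point lies above both knockout points for cardiomyocyte (259 TPM), endothelial, endoderm and smooth muscle markers and below them for stem cell markers (1182 TPM).

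Over the 9 libraries the factors' own log2(TPM + 1) levels went together to different degrees. These correlations describe a pattern in which wild type of day 8 is the highest point for every member. Pearson's r ran from 0.43 for Hand1 with Nkx2-5 to 0.99 for Tbx20 with Isl1. Nkx2-5 had an r of 0.72 with Isl1, 0.72 with Hand2 and 0.89 with Mef2c. Mef2c and Gata5 were at 0.97, and Hand1 and Hand2 at 0.90.

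Among 12423 other genes that reached 5 TPM in a library, the nearest to Isl1 were Fbn2 and Cpm (r of 0.99 each) and Slc13a4 (0.99), and the nearest to Tbx20 were Fbn2 (0.995), Samd14 (0.99) and Hand2os1 (0.99). Hand2 was nearest to Bmp5 (0.996), a ligand of the heart field list, Tbx2 (0.99), a T-box repressor of chamber genes, and Hoxd9 (0.99). Tbx5 was nearest to Alx4 (0.997), Fat4 (0.99) and Hand2os1 (0.99). Alx4 and Fat4 reached 5 TPM only in wild type at day 8, at 6.58 and 10.3 TPM against at most 0.592 and 0.579 elsewhere. Among the genes named here, Fbn2, Slc13a4, Samd14, Hand2os1, Tbx2, Hoxd9, Myh7, Phactr2, Fmo1 and Gata3 reached 5 TPM only in that library too. For genes that enter through that library alone, r rests largely on it. Mef2c was nearest to Cd47 (0.996), Myh7 (0.99), the slow myosin heavy chain, and Phactr2 (0.99), and among the nearest to Gata5 were Fmo1 (0.99) and Phactr2 (0.99). Hand1 was nearest to Gata3, Capn6 and Igf2os (0.98 each), and Nkx2-5 to Ppfia1 (0.98), Scmh1 (0.97) and Rnf214 (0.97). Such likeness was common: r was over 0.9 for 4.62% of the 12423 genes with Tbx20 and 3.9% with Isl1, but for 0.902% with Hand1 and 0.66% with Nkx2-5.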

How the data were processed

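Levels were read for 8 genes in 9 libraries of polyA+ RNA. Per the submitters' processing notes, HISAT2 2.0.5, StringTie 1.3.3b and the mm10 build were used; their roles, the annotation and whether counting used strand are not given in the sources used here. For every library the authors deposited 2 kinds of values per gene: unscaled whole-number counts, and TPM, which are scaled for length and library. Coordinates came from GENCODE M21 (mm10). In each table of counts, 259 entries without a gene name (0.0242% to 0.0398% of counts) were left out. Low counts (up to 40) were multiples of 4 in 30.6% to 43.5% of cases, so 1 count is not 1 independent fragment. Floors and intervals cover at most counting error, and an interval that takes each count as independent may be too narrow.

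A gene was tested if 2 or more libraries reached a CPM of 0.0791, equal to 10 counts at the median library size (24794 genes). All 8 members passed, also without wild type of day 8, in 5 to 8 of the other 8 libraries. Counts were scaled by TMM and tested two-sided with edgeR 4.0.16 (quasi-likelihood F test, R 4.3.3) with Benjamini-Hochberg adjustment over all genes at 0.05, in a model of 6 group means (3 residual degrees of freedom) for 7 comparisons, and, for all days together, in a model with additive terms for genotype and day (5 residual degrees of freedom). The spread comes from the knockout lines, and wild type, with 1 library a day, is taken to vary as they do. Alternatives were DESeq2 1.42.0, limma-voom and limma 3.58.1 on log2(TPM + 1) or log2(TPM + 0.1), other scalings, no filter, a block for the knockout line and each library left out. The block is an offset for H8 shared by the days, with wild type coded like G6. Under it a difference from wild type is that of the fitted G6 level, while the steps of the knockout course are paired by line. The differences between H8 and G6 correlated between days over 15732 genes (r = 0.20, 0.14 and 0.37 for days 0 and 4, 0 and 8, and 4 and 8). Leaving out both day 0 knockout libraries, or all day 0 libraries, was chosen after seeing the data.

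The members and lists were chosen with earlier results of these data known. Named by rule were all members, up to 4 genes with the widest difference among those past the threshold in each list and comparison, and the 3 genes most correlated with each member; of these, the text gives a choice, and some items are not reported here.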

Additional observations from a re-analysis of the deposited data

Results flagged for a closer look

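Members whose knockout lines both lay on opposite sides of wild type at neighbouring days were singled out, in TPM; the interaction of genotype and step passed the edgeR test for none of them. From day 0 to day 4 the interaction was -1.54 for Isl1 (SE 0.86, adjusted p = 0.414), whose lines were above wild type at day 0 and below it at day 4. It was 1.77 for Mef2c (SE 1.23, adjusted p = 0.507), whose lines went from below to above (for H8 by TPM only, since its scaled counts of day 4 lay below wild type), and 8.76 for Gata5 (SE 2.24, adjusted p = 0.166), a fitted value that is no bound because the knockout had no reads at day 0. From day 4 to day 8 the interaction was -6.70 for Nkx2-5 (SE 1.12, adjusted p = 0.131), -3.89 for Mef2c (SE 1.24, adjusted p = 0.227) and -4.98 for Gata5 (SE 1.296, adjusted p = 0.199), and the lines of each went from above wild type to below it (for Mef2c in H8 again by TPM only).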

How the results depend on the processing

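Direction held for all 8 members at day 8 in all of their 17 alternatives each. Every one of these alternatives keeps the same single wild-type library of day 8, so they cannot check the direction against another wild-type library. The number of members called there was 3, and became 6 with DESeq2, 8 with limma-voom, 7 on log2(TPM + 1), 5 on log2(TPM + 0.1), 5 without both day 0 knockout libraries, and 0 to 5 with each library left out in turn. The count at day 0 was 0 and at day 4 0, and became 2 in each with DESeq2. For the knockout course from day 0 to day 4 it was 1, and became 2 with DESeq2, 2 with the replicate block, 0 with limma-voom, on log2(TPM + 1) and on log2(TPM + 0.1), and 0 to 1 with a library left out. For the course from day 4 to day 8 it was 0, and became 2 with DESeq2 and 1 with the replicate block. For the interactions it was 0, and became 2 with DESeq2 for the first step, and 4 with DESeq2 and 2 on log2(TPM + 1) for the second. Over all days it was 1, and became 4 with DESeq2, 3 with limma-voom, 0 on log2(TPM + 1), 0 with line G6 or line H8 alone, 0 without the 3 day 0 libraries, and 0 to 1 with a library left out. With the block, which sets the fitted G6 level against wild type, day 8 gave 2 members (Isl1 and Hand1). No call changed with it other than those of Hand1, Tbx20 and Mef2c given above. The causes were not tested. Leaving out any knockout library also removes a residual degree of freedom, and without G6 or without H8 at day 0, 5 members passed at day 8. Over all genes, calls numbered 2446 at day 8 (5385 with DESeq2, 3769 with limma-voom, 4193 without both day 0 knockout libraries) and 244 over all days (3317 with DESeq2, 885 with limma-voom, 60 with the block). At day 0 it was 1347 (3692 with DESeq2), at day 4 2 (1297 with DESeq2, 56 with limma-voom), for the knockout course 3650 (5989 with DESeq2) and 77 (1573 with DESeq2, 408 with limma-voom, 150 with the block), and for the interactions 125 (1877 with DESeq2, 12 with the block) and 0 (1577 with DESeq2, 337 on log2(TPM + 1)). With a library left out, calls over all genes ran from 375 to 1586 at day 0, 0 to 6 at day 4, 0 to 4196 at day 8, 675 to 4017 and 0 to 164 for the 2 steps of the knockout course, 0 to 199 and 0 to 1 for the interactions, and 0 to 469 over all days. Depth limits Nkx2-5, Tbx5, Hand2, Mef2c and Gata5 most, which had under 100 reads in most libraries.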
